A study of Homo sapiens with 4 samples.

Results

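The metallothioneins and the zinc response genes described here were 10 genes, MT1A, MT1E, MT1F, MT1G, MT1H, MT1M, MT1X, MT2A, MTF1 and SLC30A1, chosen by name from the 59652 genes counted, and all 10 were in the table. RNA of Huh7 and PLC cells, both hepatocellular carcinoma (HCC) cell lines, was sequenced after 48 h of culture with glucose at 5 mM, here called low glucose, or at 25 mM, called high glucose. The medium was glucose-free DMEM with fetal bovine serum and antibiotics in all groups, to which the glucose was added, and no gene was altered in any group. There was 1 library for each combination of line and glucose, so no value has a replicate and every interval covers counting error only. The study used these libraries to look for long non-coding RNAs that respond to glucose in HCC cells.

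Metallothioneins are small, cysteine-rich proteins that hold zinc, copper and cadmium ions in clusters of thiolates, and the liver is one of the organs that makes them most. Free zinc activates MTF1, a zinc finger transcription factor that binds metal response elements in the promoters of the metallothionein genes and of SLC30A1. SLC30A1 encodes the zinc exporter of the plasma membrane, and glucocorticoids and oxidative stress also induce metallothioneins.

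The 8 metallothioneins were lower in high glucose than in low glucose in Huh7 cells wherever they could be measured, and their level in PLC cells was a fraction of that in Huh7 cells. The summed level of the 8 genes was 133 FPKM (fragments scaled to gene length and to the library total) in Huh7 cells in low glucose and 51.5 in high glucose. In PLC cells the sum was 17.1 FPKM in low glucose and 9.42 in high glucose. MTF1 and SLC30A1 did not pass the thresholds in either line. No metallothionein passed the edgeR test for a glucose change shared by both lines after adjustment over all genes.

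The 8 genes form a cluster on chromosome 16 of hg38, from 56608584 to 56684196, a stretch of 75613 bases. MT2A lies at chr16:56608584-56609497, MT1E at chr16:56625475-56627112, MT1M at chr16:56632659-56633981, MT1A at chr16:56638666-56640087 and MT1F at chr16:56657731-56660698. MT1G, the only one of the 8 on the minus strand, lies at chr16:56666730-56668065. MT1H lies at chr16:56669814-56671129 and MT1X at chr16:56682470-56684196. MTF1 at chr1:37809574-37859592 and SLC30A1 at chr1:211571568-211579161 are both on the minus strand. The bounds of all 10 genes in the table were those of GENCODE release 44.

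The coding sequences are shown first because their likeness sets how well reads can be told apart. In each of the 8 genes, GENCODE has a transcript with a coding sequence of 186 bases, for 61 residues of which 20 are cysteines. The sequence of MT2A is given with its 20 cysteine codons in capitals.
MT2A: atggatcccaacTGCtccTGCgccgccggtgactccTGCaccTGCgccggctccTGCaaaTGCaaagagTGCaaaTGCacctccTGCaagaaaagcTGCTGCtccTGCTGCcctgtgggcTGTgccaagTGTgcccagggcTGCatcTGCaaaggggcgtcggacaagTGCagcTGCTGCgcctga
The 3 genes with reads in all 4 libraries were MT2A, MT1E and MT1X, and MT1F was the next most highly expressed in Huh7 cells. Their sequences are given with the bases that differ from MT2A in capitals.
MT1E: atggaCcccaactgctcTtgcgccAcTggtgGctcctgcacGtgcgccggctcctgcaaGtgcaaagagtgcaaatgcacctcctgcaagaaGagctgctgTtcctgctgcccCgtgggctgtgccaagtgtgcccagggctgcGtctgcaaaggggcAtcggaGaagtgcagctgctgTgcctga
MT1F: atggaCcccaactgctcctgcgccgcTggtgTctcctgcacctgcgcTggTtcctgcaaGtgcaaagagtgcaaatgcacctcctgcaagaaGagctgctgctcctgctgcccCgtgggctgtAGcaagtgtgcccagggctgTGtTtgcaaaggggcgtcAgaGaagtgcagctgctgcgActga
MT1X: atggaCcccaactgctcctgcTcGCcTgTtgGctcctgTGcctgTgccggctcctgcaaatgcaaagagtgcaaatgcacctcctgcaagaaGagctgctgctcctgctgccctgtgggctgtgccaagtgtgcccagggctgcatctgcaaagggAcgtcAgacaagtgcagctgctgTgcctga
MT1E and MT1X each differed from MT2A at 14 bases and MT1F at 16. Over the 7 genes, the identity to MT2A ran from 89.8% for MT1M to 95.2% for MT1G. Between 5.76% (MT1A) and 51.0% (MT1X) of the 50-base windows of the canonical transcript also occurred in a transcript of another gene. For MT2A that share was 11.1%, for MT1E 10.3% and for MT1F 6.12%. A read that lies within such a window cannot be placed on 1 gene. The values of single genes, above all of MT1X, are thus uncertain where the counting divided or dropped such reads. The windows do not use the read length, and a read that reaches past a shared window can be placed. Of the 181 shared windows of MT1X, 117 occurred in ENSG00000259827, which is not one of the 8 genes. MT1X also shares 321 bases on the same strand with AC026461.1, which had 0 reads in all 4 libraries.

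Upstream sequences of MT2A, MT1X and SLC30A1 are shown next, because they are the genes with a RefSeq promoter entry that had reads in all 4 libraries and held the metal response element core. Of the 10 genes, 5 had an entry (MT1H, MT1X, MT2A, MTF1 and SLC30A1), and MT1A, MT1E, MT1F, MT1G and MT1M had none. The letters searched were TGCACNC and TGCGCNC, on both strands, and capitals mark the matches. Each sequence is the 250 bases before the start on GRCh38.p14, read on the gene's strand.
MT2A, plus strand, chr16:56608334-56608583: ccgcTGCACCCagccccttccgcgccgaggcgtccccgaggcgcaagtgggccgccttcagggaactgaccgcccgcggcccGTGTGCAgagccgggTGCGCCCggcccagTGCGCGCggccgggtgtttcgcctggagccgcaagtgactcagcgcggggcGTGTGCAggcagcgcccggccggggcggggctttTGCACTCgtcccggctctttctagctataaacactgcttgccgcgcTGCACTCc
MT1X, plus strand, chr16:56682220-56682469: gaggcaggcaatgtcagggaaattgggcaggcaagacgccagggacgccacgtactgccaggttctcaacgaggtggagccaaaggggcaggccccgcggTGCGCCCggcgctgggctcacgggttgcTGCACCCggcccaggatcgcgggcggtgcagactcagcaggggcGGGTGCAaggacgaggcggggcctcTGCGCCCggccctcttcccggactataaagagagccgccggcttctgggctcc
SLC30A1, minus strand, chr1:211579162-211579411: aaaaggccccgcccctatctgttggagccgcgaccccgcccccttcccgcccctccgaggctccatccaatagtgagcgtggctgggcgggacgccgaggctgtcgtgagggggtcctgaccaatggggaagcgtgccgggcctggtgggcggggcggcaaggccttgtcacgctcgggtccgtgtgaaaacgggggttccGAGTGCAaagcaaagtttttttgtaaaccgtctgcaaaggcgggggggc
Of the printed bases, those of MT2A held 7 matches, those of MT1X held 4 and those of SLC30A1 held 1. In the whole entry of 300 bases, MT2A and MT1H had 8 matches each, MT1X had 4, SLC30A1 had 2 and MTF1 had 0. Among the 35116 promoters of the same length, 29.6% held at least 1 match, 8.60% at least 2, 0.601% at least 4 and 0.0199% at least 8. The matches in MT2A lay between 246 bases and 2 bases before the start. A match of letters is a description of the sequence, and binding was not measured.

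The libraries held 21376239 counted reads (Huh7, low glucose), 30085303 (Huh7, high glucose), 30279716 (PLC, low glucose) and 16049686 (PLC, high glucose). The PLC library in high glucose was thus the shallowest, and 3 reads there stood for 0.187 CPM (counts scaled to the library total) against 0.0991 to 0.140 in the other 3. The labelled cell type was checked with 8 markers of hepatocytes and liver tumours, of which 8 were over 0.5 FPKM in both Huh7 libraries and 7 in both PLC libraries. TTR, the marker under that level, had 4 and 0 reads in PLC cells. The summed FPKM of these markers was 4084 and 4412 in Huh7 cells against 542 and 1416 in PLC cells, low before high glucose. Of 6 fibroblast markers 1 was over 0.5 FPKM in each library, LUM in Huh7 cells and COL3A1 in PLC cells. Of 4 endothelial markers 1 was in Huh7 cells against 0 in PLC cells, and of 5 blood cell markers only LYZ was. The part of these markers in the results was not tested, and in bulk RNA fewer cells with a transcript and less transcript per cell cannot be told apart.

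MT2A, which in human cells is usually the most abundant metallothionein, had 1405 reads (71.9 FPKM) in Huh7 cells in low glucose and 754 reads (27.4 FPKM) in high glucose. In PLC cells it had 423 reads (15.3 FPKM) in low glucose and 128 reads (8.73 FPKM) in high glucose. Its level was lower in high glucose in both lines, and both PLC libraries were below both Huh7 libraries. MT1E, the second in Huh7 cells, had 902 reads (40.1 FPKM) and 532 reads (16.8 FPKM) there, low before high glucose. In PLC cells MT1E had 16 reads (0.502 FPKM) and 2 reads (0.118 FPKM), so the gene that stood next to MT2A in Huh7 cells was near the floor of 3 reads in PLC cells.

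MT1F had 319 and 122 reads (8.06 and 2.19 FPKM) in Huh7 cells against 2 and 0 reads in PLC cells, low before high glucose. MT1M had 50 and 21 reads (4.58 and 1.37 FPKM) in Huh7 cells, while MT1A had 38 and 28 (4.49 and 2.35 FPKM). Both had 0 reads in PLC cells, where 3 reads would be 0.194 and 0.366 FPKM of MT1M and 0.250 and 0.472 FPKM of MT1A. MT1G had 30 and 6 reads (1.87 and 0.266 FPKM) in Huh7 cells against 2 and 0 in PLC cells. These 4 isoforms were over 3 reads in Huh7 cells only, and in PLC cells none of them was detectable above the floor.

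MT1X had 73 and 56 reads (1.98 and 1.08 FPKM) in Huh7 cells against 43 and 16 reads (0.822 and 0.577 FPKM) in PLC cells, the least difference between the lines among the 7 isoforms measured in low glucose. MT1H was the exception in direction, with 2 and 0 reads in Huh7 cells against 8 and 0 in PLC cells, under 0.5 FPKM everywhere. Over 3 reads were 7 of the 8 metallothioneins in each Huh7 library, 4 in PLC cells in low glucose and 2 in PLC cells in high glucose. Only MT1X and MT2A were over 3 reads in all 4 libraries.

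**Figure D1:**
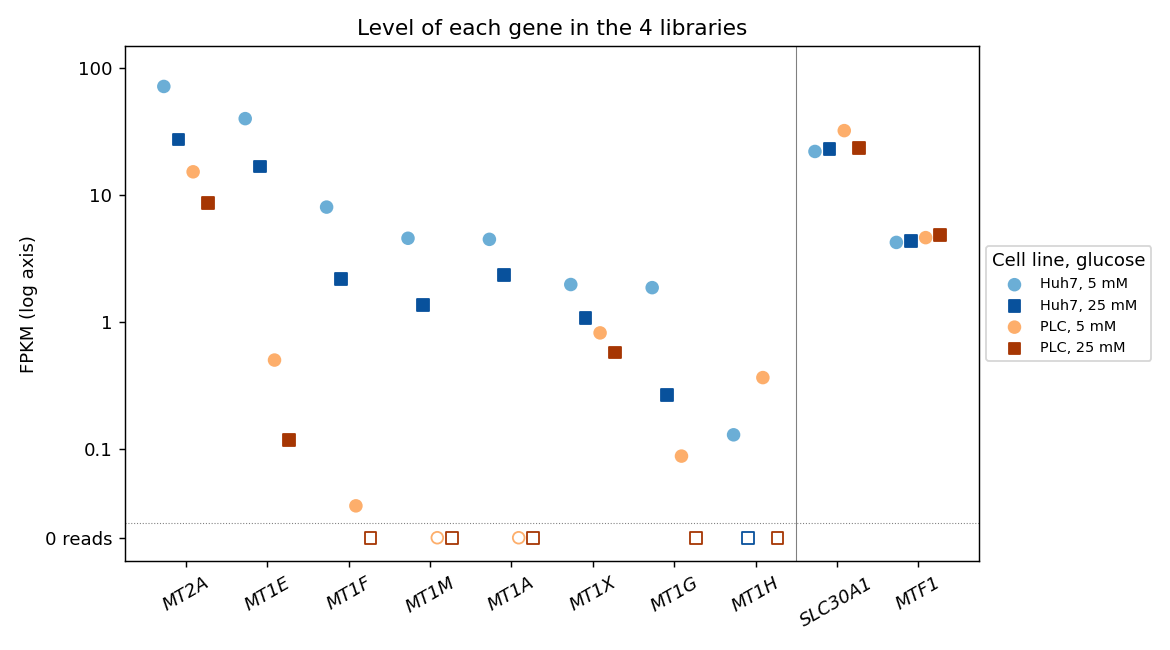
Level of each of the 10 genes in the 4 libraries, in FPKM on a log axis, with circles for 5 mM and squares for 25 mM glucose. Open symbols under the dotted line stand for 0 reads, and the grey line separates the 8 metallothioneins from SLC30A1 and MTF1. MT2A runs from 71.9 to 8.73 FPKM over the libraries and MTF1 from 4.25 to 4.83.

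MTF1, the zinc-sensing activator, had 725 and 1048 reads (4.25 and 4.36 FPKM) in Huh7 cells against 1120 and 619 reads (4.63 and 4.83 FPKM) in PLC cells, low before high glucose. Its 4 levels thus lay within a narrow range. SLC30A1, the exporter, had 2785 and 4075 reads (22.1 and 23.0 FPKM) in Huh7 cells against 5758 and 2213 reads (32.3 and 23.4 FPKM) in PLC cells. The PLC library in low glucose stood above the other 3.

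The glucose comparison was made within each line, on the thresholds that the study gave for long non-coding RNAs. A gene was measured where its FPKM was over 0.5 in at least 1 of the 2 libraries, and it was called where the ratio of high to low glucose, with 0.1 added to both FPKM values, was over 1.5 or under 0.67. In Huh7 cells 7 of the 7 metallothioneins measured were called lower and 0 higher, where 13.7% of all 21864 genes measured were called lower. In PLC cells 2 of the 3 measured were called lower, where 17% of all 21749 were. MT1G in Huh7 cells and MT1E in PLC cells were measured through low glucose only, so they could not be called higher. Lower in both lines were MT1E and MT2A, of the 3 metallothioneins measured in both, against 3.82% of all 18108 genes measured in both. The median log2 ratio of the metallothioneins was -1.39 in Huh7 cells against -0.80 in PLC cells, and that of all genes was 0.04 and 0.11. The genes share a cluster and some sequence, so they are not independent of each other.

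Ratios are given next as reads per library total, with their exact 95% Clopper-Pearson intervals. In Huh7 cells MT2A in high glucose was at 0.381 of its low glucose level (0.349 to 0.417). MT1E was at 0.419 (0.376 to 0.467) and MT1F at 0.272 (0.219 to 0.336). MT1M was at 0.298 (0.170 to 0.506) and MT1G, on 30 and 6 reads, at 0.142 (0.0484 to 0.347). The isoforms nearest to 1 were MT1X at 0.545 (0.378 to 0.783) and MT1A at 0.524 (0.309 to 0.876). All 7 intervals were below 1. MT1H had 3 reads or fewer in both Huh7 libraries and gets no ratio. The intervals of MT1F and MT1G lay below those of MT2A and MT1E.

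In PLC cells MT2A was at 0.571 (0.465 to 0.697) and was the only metallothionein there whose interval was below 1. MT1E was called lower on 16 and 2 reads, with a ratio of 0.236 and an interval of 0.0263 to 1.003. MT1X was at 0.702 (0.369 to 1.27), within the thresholds. MT1H, on 8 and 0 reads, was under the FPKM minimum, and the interval of its ratio ran from 0 to 1.11. MT1A, MT1F, MT1G and MT1M had 3 reads or fewer in both PLC libraries. The PLC call of MT1E was lost with 1 added to FPKM, with a threshold of 0.5 FPKM in both libraries or with a minimum of 20 reads, and PLC cells then had 1 metallothionein, MT2A, called lower. With a ratio under 0.5 it was MT2A, at 0.574 with 0.1 added, that lost its PLC call.

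MTF1 was at 1.03 (0.933 to 1.13) in Huh7 cells against 1.04 (0.944 to 1.15) in PLC cells. SLC30A1 was at 1.04 (0.990 to 1.09) in Huh7 cells against 0.725 (0.690 to 0.762) in PLC cells, within the thresholds. With the size factors of TMM or DESeq2 the PLC ratio of MTF1 was 0.960 or 0.952, and the PLC ratio of SLC30A1 was 0.668 or 0.662, just under the threshold of 0.67. The same size factors moved the median of all genes in PLC cells by -0.12 and -0.13 on the log2 scale, and 60.7% of all calls in PLC cells were higher by library totals against 51.3% and 50.5% with them.

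**Figure D2:**
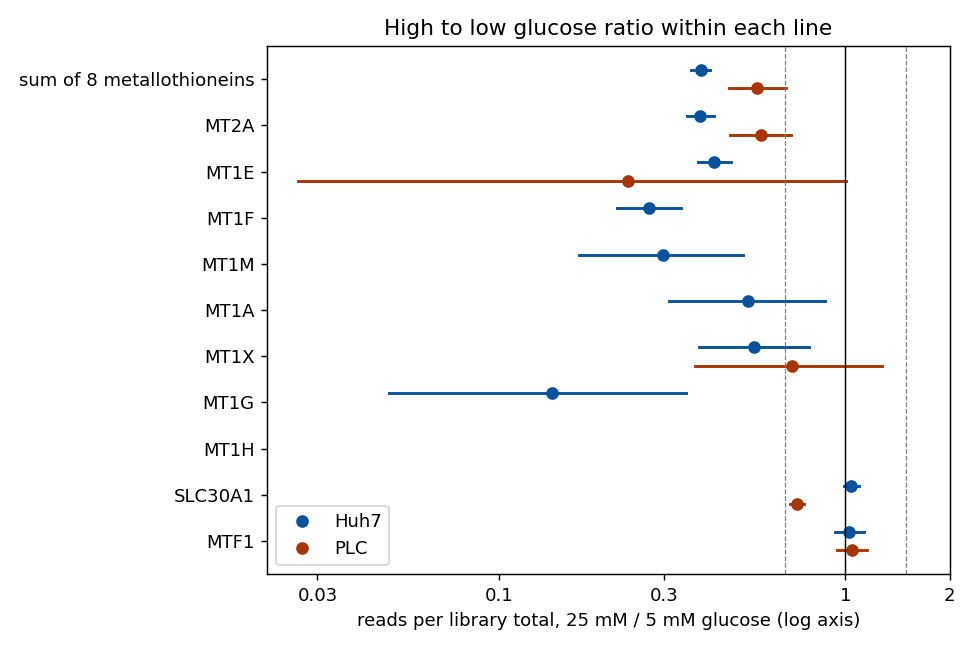
Ratio of high to low glucose in Huh7 and PLC cells for the metallothionein sum and each gene, as reads per library total on a log axis. Points are the ratios, bars their exact 95% counting intervals, the solid line marks 1 and the dashed lines 0.67 and 1.5, and no point is drawn for a library at 0 reads or for 3 reads or fewer in both. The Huh7 points of the 7 isoforms lie between 0.142 and 0.545.

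Reads exchanged among the 8 genes stay within their sum, while reads placed on other genes or pseudogenes, or dropped, leave it. The sum was 2819 and 1519 reads in Huh7 cells against 494 and 146 in PLC cells, low before high glucose. The ratio of high to low glucose was 0.383 (0.359 to 0.408) in Huh7 cells against 0.558 (0.460 to 0.672) in PLC cells. Without MT2A it was 0.384 (0.352 to 0.420) in Huh7 cells against 0.478 (0.268 to 0.811) in PLC cells, on 71 and 18 reads. The sums of both lines were lower in high glucose with and without the most abundant gene. Whether the lines differ in their glucose ratio could not be tested, because 4 libraries leave no residual degree of freedom for it.

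Whether both lines shared a change was tested with edgeR, with the cell line in the model and 1 residual degree of freedom. Of 23217 genes tested, 0.314% (73) were called lower and 15 higher at an adjusted p under 0.05. Of the 10 genes 8 were tested, MT1G and MT1H being filtered out, and 0 were called. Of these 8 genes 3 had an unadjusted p under 0.05, where 1975 of all 23217 genes tested did. The lowest adjusted p of the 10 genes was that of MT2A, with a log2 change of -1.19 (SE 0.28, edgeR adjusted p = 0.102). MT1F had -1.96 (SE 0.52, edgeR adjusted p = 0.150) and MT1E -1.43 (SE 0.38, edgeR adjusted p = 0.151). MT1F had 3 reads or fewer in both PLC libraries, and MT1M and MT1A had 0 reads in both. The estimates of MT1F, MT1M and MT1A thus rest on Huh7 cells. MT1M had a log2 change of -1.75 (SE 0.99) and MT1X of -0.79 (SE 0.49), with edgeR adjusted p of 0.730 and 0.769. MT1A had -0.95, SLC30A1 -0.28 and MTF1 -0.03, with edgeR adjusted p from 0.858 to 0.998. These calls depended on the method, as DESeq2 called MT2A (adjusted p = 0.0416), and edgeR without a filter on low counts called MT2A (0.00720), MT1F (0.0274) and MT1E (0.0375).

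**Figure D3:**
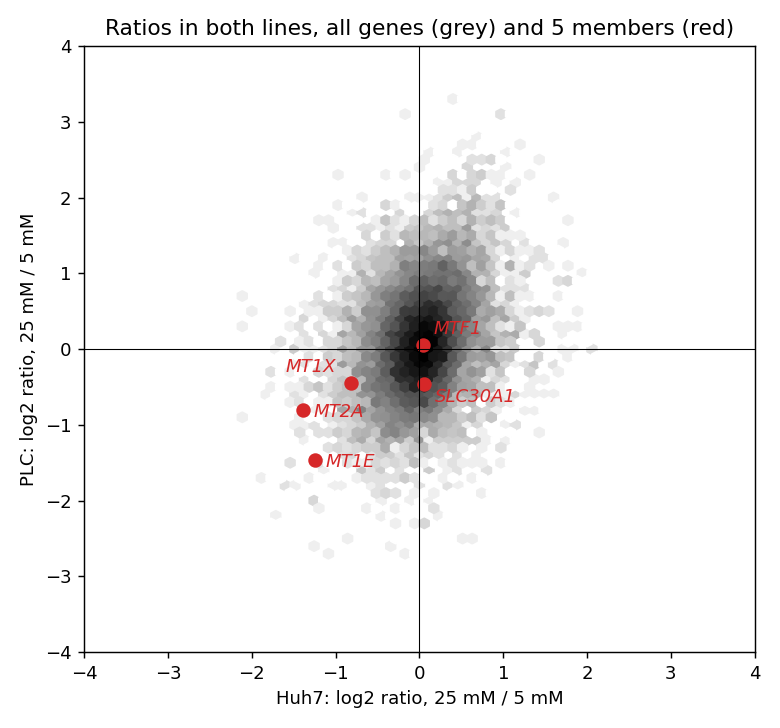
Log2 ratio of high to low glucose in Huh7 cells (x axis) and PLC cells (y axis), with 0.1 added to FPKM, for 15758 genes over 0.5 FPKM in at least 1 library of each line and with at least 20 reads in some library. Grey shading is the number of genes on a log scale and red points are the 5 of the 10 genes measured in both lines. MT2A, MT1E and MT1X lie at the lower left, and MTF1 lies near 0 on both axes.

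Most metallothioneins were higher in Huh7 cells than in PLC cells at either glucose concentration. In low glucose 7 of the 7 metallothioneins measured were called higher in Huh7 cells than in PLC cells, where 35.7% of all genes measured were. In high glucose 6 of 6 were, where 32% of all genes were. MT1A, MT1F, MT1G and MT1M in low glucose, and MT1A, MT1E, MT1F and MT1M in high glucose, were measured through Huh7 cells only. A gene measured so cannot be called lower. MT1H, with more reads in PLC cells in low glucose, was under the FPKM minimum. These counts thus depend in part on the filter. Per library total, MT2A was 4.70-fold higher in Huh7 cells in low glucose (4.22 to 5.26) and 3.14-fold in high glucose (2.60 to 3.82). MT1E was 79.9-fold higher (48.9 to 140) in low glucose, and 142-fold (39.1 to 1175) in high glucose on 2 PLC reads. MT1F was 226-fold higher in low glucose (62.0 to 1874), on 2 PLC reads, and at least 21.7-fold higher in high glucose. Against the floor of 3 reads per library, MT1M was at least 23.6-fold and MT1A at least 17.9-fold higher in low glucose, and at least 3.73-fold and 4.98-fold in high glucose. MT1G was 21.2-fold higher in low glucose (5.39 to 183). MT1X, which is in part of shared sequence, was 2.40-fold higher in low glucose (1.63 to 3.59) and 1.87-fold in high glucose (1.06 to 3.49). MT1H, on 2 and 8 reads in low glucose, had a ratio of 0.354 (0.0366 to 1.77).

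The zinc sensor and the exporter passed the thresholds between the lines at neither glucose concentration. MTF1 in Huh7 cells was at 0.917 of the PLC level in low glucose (0.834 to 1.01) and 0.903 in high glucose (0.817 to 0.999). SLC30A1 was at 0.685 (0.655 to 0.717) in low glucose and 0.982 (0.933 to 1.03) in high glucose. The sum of the 8 metallothioneins was 8.08-fold higher in Huh7 cells in low glucose (7.34 to 8.91) and 5.55-fold in high glucose (4.68 to 6.62). Without MT2A these values were 28.2-fold (22.2 to 36.3) and 22.7-fold (14.2 to 38.5).

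In the edgeR test of Huh7 against PLC cells, with glucose in the model, 5 of the 8 genes tested were called. All 5 were higher in Huh7 cells, where 21.8% of all genes tested were called higher. MT1A, MT1F and MT1M had 2 reads or fewer in each PLC library and entered the test through Huh7 cells, so they could not be called lower there. This count thus depends in part on the filter, and with at least 10 reads in every library only 1, MT2A, was called. MT1E had a log2 difference of 6.47 (SE 0.43, edgeR adjusted p = 8.62e-08) and MT1F of 7.85 (SE 0.67, edgeR adjusted p = 8.70e-07). MT2A had 1.95 (SE 0.28, edgeR adjusted p = 9.79e-05). MT1M and MT1A had 8.40 (SE 1.51) and 8.16 (SE 1.53), with edgeR adjusted p of 0.00076 and 0.000984, but with 0 PLC reads the size of these estimates depends on the prior count. MT1X had 1.09 (SE 0.49, edgeR adjusted p = 0.0933), SLC30A1 -0.29 (edgeR adjusted p = 0.330) and MTF1 -0.14 (edgeR adjusted p = 0.680). The 2 libraries of a line differ in glucose and are not replicate cultures. For each gene, the model with line and glucose leaves over a spread with 1 residual degree of freedom. The edgeR test draws this spread toward a trend over all genes tested, so the p-values rest in part on spread pooled over genes. Neither is a spread between replicate cultures.

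The make-up of the metallothionein RNA, compared per length, differed between the lines. MT2A was 54.0% and 53.3% of the summed FPKM in Huh7 cells against 89.4% and 92.6% in PLC cells, low before high glucose. MT1E was 30.1% and 32.7% in Huh7 cells against 2.94% and 1.26% in PLC cells. MT1F was 6.05% and 4.25% in Huh7 cells. MT1X was 1.49% and 2.09% in Huh7 cells against 4.81% and 6.13% in PLC cells. By reads, MT2A held 49.8% (48.0 to 51.7) and 49.6% (47.1 to 52.2) in Huh7 cells against 85.6% (82.2 to 88.6) and 87.7% (81.2 to 92.5) in PLC cells, with Clopper-Pearson 95% intervals. The intervals of MT2A overlapped within each line and not between the lines. MT1F held 11.3% (10.2 to 12.5) and 8.03% (6.71 to 9.51) of the reads in Huh7 cells, and these intervals did not overlap.

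The gene lengths behind FPKM are those in the count table, which adds up the exons of all transcripts. They exceed the canonical transcript most for MT1F (1852 against 425 bases) and MT1X (1727 against 404), and for MT2A they are 914 against 401 bases. With canonical lengths, chosen after the data were seen, MT2A made up 58.9% and 59.6% in Huh7 cells against 87.0% and 88.3% in PLC cells. MT1E then made up 20.3% and 22.6%, and MT1F 12.6% and 9.09%, in Huh7 cells. The order MT2A, MT1E, MT1F stood at the head in both Huh7 libraries under either length, except that MT1A (2.35 FPKM) was above MT1F (2.19 FPKM) in high glucose by the lengths of the table.

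Genes beside the cluster were taken by position only. The protein-coding genes described within 200 kb were NUDT21, OGFOD1 and BBS2 on one side and NUP93 on the other. Their ratios of high to low glucose in Huh7 cells ran from 0.904 (BBS2) to 1.24 (NUDT21 and NUP93), within the thresholds. In PLC cells OGFOD1 was at 0.509 and was called lower, while NUDT21, BBS2 and NUP93 ran from 0.991 to 1.33. OGFOD1 was also lower in Huh7 than in PLC cells in low glucose, with a ratio of 0.373, opposite to the metallothioneins.

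None of the other zinc transporters measured in Huh7 cells passed the thresholds. Of the SLC30 exporters other than SLC30A1, 5 were measured in Huh7 cells against 7 in PLC cells, and 0 were called in either line. Of all genes measured, 13.7% were called lower and 14.1% higher in Huh7 cells, and 17% lower and 26.2% higher in PLC cells. The median log2 ratios of these exporters were 0.12 and 0.08. SLC30A9 had 12.2 and 12.2 FPKM in Huh7 cells against 22.1 and 23.7 in PLC cells, low before high glucose. SLC30A6 had 13.2 and 14.5 FPKM in Huh7 cells against 14.7 and 15.5 in PLC cells. Of the SLC39 importers, 0 of 10 measured were called in Huh7 cells, and 0 lower and 2 higher of 11 in PLC cells, where 26.2% of all genes were called higher. The 2 were SLC39A4 at 1.77 (2.26 to 4.09 FPKM) and SLC39A10 at 1.62 (6.74 to 11.0 FPKM), which are named after their values were seen. SLC39A14, a zinc and iron importer of the liver, had 53.0 and 61.7 FPKM in Huh7 cells against 51.9 and 53.1 in PLC cells. SLC39A7, which releases zinc from the endoplasmic reticulum, had 27.5 and 39.9 FPKM and 65.0 and 84.4 FPKM. With edgeR, 0 of the 8 exporters and 0 of the 12 importers tested were called, where 88 of all 23217 genes tested were. At an unadjusted edgeR p under 0.05 were 0 and 0, where 1975 of the 23217 were.

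Copper, which metallothioneins also bind, gave no lower call. Of the copper handling genes, 1 of 12 measured was called higher in Huh7 cells against 2 of 13 in PLC cells, no larger a share than the 14.1% and 26.2% of all genes. CP, the copper ferroxidase ceruloplasmin that the liver secretes, was called higher in both lines, as 5.3% of all genes measured in both were, from 0.959 to 1.96 FPKM in Huh7 cells and from 2.07 to 10.5 FPKM in PLC cells. With edgeR its shared log2 change was 1.63 (SE 0.33, edgeR adjusted p = 0.0584), and 0 of 14 copper genes tested were called. Of these 14 genes 1 had an unadjusted edgeR p under 0.05, where 1975 of all 23217 genes tested did. The other call in PLC cells was ATOX1, a copper chaperone, at 1.61, named after its value was seen. SLC31A1, the copper importer, had 36.2 and 34.3 FPKM in Huh7 cells against 42.1 and 34.1 in PLC cells. SOD1, the copper and zinc superoxide dismutase, had 64.4 and 72.8 FPKM in Huh7 cells against 64.1 and 88.4 in PLC cells.

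Genes that heavy metals and protein stress induce were lower in part. Of 12 measured, 2 were called lower and 2 higher in Huh7 cells, and 7 lower and 0 higher in PLC cells, with median log2 ratios of -0.27 and -0.86. Of all genes measured, 13.7% were called lower and 14.1% higher in Huh7 cells, and 17% lower and 26.2% higher in PLC cells, so the Huh7 counts were near the background. HMOX1, the heme oxygenase that cadmium and oxidants induce, went from 10.1 to 4.12 FPKM in Huh7 cells and from 212 to 51.4 in PLC cells. SLC7A11, the cystine importer that supplies glutathione synthesis, went from 42.1 to 8.37 FPKM in Huh7 cells and from 31.2 to 11.1 in PLC cells. Both fell in the edgeR test over both lines, HMOX1 by 1.76 on the log2 scale (SE 0.25, edgeR adjusted p = 0.00930) and SLC7A11 by 1.99 (SE 0.24, edgeR adjusted p = 0.00287). They were the 2 genes of this list called by edgeR, of 12 tested, where 88 of all 23217 genes tested were called. Of these 12 genes 5 had an unadjusted edgeR p under 0.05, where 1975 of all 23217 genes tested did. HSPA1A and HSPA1B, near-identical heat shock genes whose reads can be exchanged, were called higher in Huh7 cells (1.79 and 1.64) and lower in PLC cells (0.548 and 0.400). HSPA8 had 280 and 238 FPKM in Huh7 cells against 415 and 394 in PLC cells, within the thresholds, and HSPB1 had 31.2 and 38.8 FPKM and 207 and 295 FPKM. HMOX1 was lower in Huh7 than in PLC cells, at 0.0483 in low glucose and 0.0819 in high glucose, opposite to the metallothioneins.

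Genes that glucocorticoids induce moved in both directions. Of 12 measured in Huh7 cells 4 were called lower and 1 higher, and of 11 in PLC cells 4 lower and 2 higher. Over all genes these shares were 13.7% and 14.1% in Huh7 cells against 17% and 26.2% in PLC cells. Their median log2 ratios were -0.17 and -0.12. DUSP1, a phosphatase of MAP kinases, was called lower in both lines. DUSP1 went from 31.1 to 17.6 FPKM in Huh7 cells and from 111 to 34.0 in PLC cells. With edgeR, adjusted p was 0.0521 for DUSP1, and 0 of 13 genes of the list were called. Of these 13 genes 5 had an unadjusted edgeR p under 0.05, where 1975 of all 23217 genes tested did. ERRFI1, a feedback inhibitor of the EGF receptor, had 79.2 and 66.1 FPKM in Huh7 cells against 41.3 and 23.1 in PLC cells.

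The genes most like the metallothionein sum were sought by the Euclidean distance of the 4 log2(FPKM + 0.1) values, centred on their mean, over 10982 protein-coding genes that reached 20 reads in every library. The nearest 5 were DPP7, GPAM, DAGLA, RND3 and SLC47A1, at distances from 0.460 to 0.734. DPP7, a dipeptidase of vesicles, had 13.8 and 7.25 FPKM in Huh7 cells against 2.59 and 1.02 in PLC cells, low before high glucose. GPAM, the first enzyme of glycerolipid synthesis at the mitochondrion, had 28.6 and 17.9 FPKM and 4.78 and 2.48 FPKM. DAGLA, a diacylglycerol lipase, had 6.60 and 3.20 FPKM and 1.39 and 0.516 FPKM. RND3, a small GTPase, had 22.5 and 13.8 FPKM and 3.46 and 1.40 FPKM. SLC47A1, an exporter of organic cations in the liver, had 7.26 and 4.80 FPKM and 0.751 and 0.599 FPKM. All 5 were higher in Huh7 cells and lower in high glucose within each line, which is the pattern by which they were chosen, over only 4 libraries.

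Short transcripts were compared over protein-coding genes outside the metallothionein family. They were taken in each line from the genes with at least 20 reads in 1 or more of its 2 libraries. In each line 184 such genes had a canonical transcript of at most 600 bases. Their median log2 ratio of high to low glucose was 0.15 in Huh7 cells against 0.42 in PLC cells. For such genes of any length, 12819 in Huh7 cells and 12684 in PLC cells, it was 0.05 and 0.06. The canonical transcripts of the metallothioneins are of this length class, except that of MT1E with 746 bases. The part of transcript length in their ratios was not tested.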

How the data were processed

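RNA of Huh7 and PLC cells was extracted with TRIzol, depleted of rRNA and made into directional libraries by the authors. The authors deposited 1 table of whole-number counts of reads per gene, without normalization, with the columns that featureCounts writes. The submitters' processing notes name HISAT2, featureCounts and hg38. Versions, the annotation release and the treatment of reads that match several genes are not given in the sources used here. Of 59657 lines 59652 were used, and 5 lines of a broken entry were left out.

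The depth was 16049686 to 30279716 counted reads per library, and 3 reads were taken as the floor. FPKM was computed from these counts by dividing by gene length, as the table gives it, and by the library total. Intervals are exact 95% Clopper-Pearson intervals and cover counting error only, since reads are not independent molecules. Shared changes and differences between the lines were tested with edgeR 4.0.16 in R 4.3.3, by its quasi-likelihood F-test on the counts (model with cell line and glucose, filterByExpr, TMM, Benjamini-Hochberg adjustment over all genes tested). DESeq2 1.42.0 was an alternative. The other scripts used Python 3.11.15. Only the edgeR test of the shared glucose change was tried on simulated data, which had no line difference and the same spread for all genes. It found 51.5% of 200 genes with a 2-fold change. Alternatives were other size factors, added constants, filters, thresholds, models and gene sets.

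The members and the gene lists were chosen with earlier results of these data known. All 10 genes were named, and of each other list the 2 genes with the highest mean FPKM and every gene called in the same direction in both lines. Some genes that this rule names are not reported here. Genes named for other reasons are said to be so, and the genes beside the cluster, AC026461.1, HSPA1A, HSPA1B and CEBPD were also named after their values were seen. Promoter sequences are from RefSeq (GRCh38.p14), coding sequences from GENCODE release 44.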

Additional observations from a re-analysis of the deposited data

Results flagged for a closer look

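Reads were also found on relatives of the 10 genes, which above enter only the sum with the other metallothionein genes and pseudogenes. Of 12 other metallothionein genes and pseudogenes in the table, 8 had 0 reads in all 4 libraries, among them MT3 and MT4, the metallothioneins of brain and of squamous epithelium. MT1L, a metallothionein pseudogene of the cluster, had 8 reads in Huh7 cells in low glucose and 17 in high glucose, and 0 in PLC cells. MT1P1 had 19 reads in Huh7 cells in high glucose and 2 in low glucose, and 9 and 6 in PLC cells, low before high glucose. MT1XP1 had 4 reads in PLC cells in high glucose and 2 in low glucose. The values of 4 reads or more are above the 3 reads that a count of 0 allows. Near-identical sequence can place reads of a metallothionein on a pseudogene, and the part of this in these counts was not tested.

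Some genes of the lists were called in opposite directions in the lines, and the difference was not tested, because 1 library per line and glucose concentration leaves no residual degree of freedom. The ratio of high to low glucose of HSPA1A was 1.79 in Huh7 cells and 0.548 in PLC cells. That of HSPA1B was 1.64 and 0.400. That of CEBPD, a liver transcription factor, was 0.590 in Huh7 cells, on 50 and 40 reads, and 1.53 in PLC cells.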

How the results depend on the processing

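No called result changed its direction under an alternative. The ratio of MTF1, which was not called, moved across 1, from 1.04 to 0.960 (TMM) and 0.952 (DESeq2 size factors) in PLC cells and from 1.03 to 0.9995 (TMM) in Huh7 cells. Of all calls in Huh7 cells, 50.8% were higher by library totals and 47.2% with TMM. In Huh7 cells 7 metallothioneins were called lower, and 5 to 8 were under the alternatives, with 5 at a ratio under 0.5. In PLC cells, where 2 were called lower, 1 was with 1 added to FPKM, with FPKM over 0.5 in both libraries, with a ratio under 0.5 or with a minimum of 20 reads, and 4 were with no FPKM minimum. The 1 was MT1E at a ratio under 0.5 and MT2A in the other 3 of these settings. Over all genes, 1407 to 5352 were called lower and 1556 to 5847 higher in Huh7 cells across these settings, and 2037 to 7000 lower and 3216 to 8409 higher in PLC cells. With 1 added, the Huh7 ratios of MT1F and MT1G were 0.352 and 0.441.

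For the change shared by both lines, 73 genes were lower and 15 higher with edgeR. DESeq2 called 131 lower and 63 higher, with 1 of the 10 genes among them, and no filter gave 284 and 242, with 3. At least 10 reads in every library gave 27 and 0. With no replicate block, that is with the cell line left out of the model, 0 were lower and 0 higher. The lowest adjusted p over these alternatives was 0.00720 for MT2A, 0.0274 for MT1F and 0.0375 for MT1E, all with no filter, and the highest was 0.99996 for each, with no replicate block. In the test between lines, at least 10 reads in every library left 3169 genes higher and 3171 lower and called 1 of the 10 genes, MT2A, since the others called no longer entered the test. Under the other alternatives these 5 genes were called again, with the highest adjusted p at 0.0239 for MT2A with glucose left out of the model.

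The ratio of the sums between the lines was 28.2 and 22.7 without MT2A, against 8.08 and 5.55. By reads, the shares in Huh7 cells in low glucose were 49.8% for MT2A, 32.0% for MT1E and 2.59% for MT1X. In high glucose they were 49.6% for MT2A and 3.69% for MT1X. In PLC cells in low glucose they were 85.6% for MT2A and 8.70% for MT1X. By canonical lengths, they were 58.9%, 20.3% and 3.04% for MT2A, MT1E and MT1X in Huh7 cells in low glucose. In high glucose they were 59.6%, 22.6% and 4.39%, and MT1X was 8.78% in PLC cells in low glucose. The causes were not tested. No alternative leaves out a library: each condition has 1 library, and 3 libraries have no residual degree of freedom. Depth limits MT1A, MT1F, MT1G, MT1H and MT1M in PLC cells, which were at 8 reads or fewer in every library.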
